A study of Homo sapiens with 6 samples.

Results

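Nucleotide synthesis and salvage genes were followed in PANC-1, an established line of human pancreatic cancer cells, after silencing of ZDHHC20, a palmitoyl acyltransferase. The 44 genes were chosen by name from the purine, pyrimidine and one-carbon pathways, out of 27394 genes in the deposited table, and 44 of 44 had a mean value of at least 1 over the 6 libraries. Such a mean was the filter for testing, and 22189 genes passed it. Cells of the shControl group were infected with a control shRNA, cells of the shZDHHC20 group with an shRNA against ZDHHC20, and each group had 3 RNA-seq libraries. Apart from the shRNA, the labels describe both groups alike, as cells of 1 line grown in medium with serum, with total RNA taken up in Trizol and libraries from a kit that keeps the strand. The labels name no shRNA sequence and no time after infection, and they do not say that the libraries came from separate cultures, so p-values measure only the spread between these libraries, which may be technical.

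Purine nucleotides are made along a de novo route, in which the ring is built step by step on phosphoribosyl pyrophosphate (PRPP), and along a salvage route, in which HPRT1 or APRT attaches the sugar phosphate of PRPP to a ready-made base. Pyrimidine rings are built first and then attached to PRPP, while nucleosides from outside are salvaged by kinases. Ribonucleotide reductase turns ribonucleotides into deoxynucleotides, thymidylate synthase makes the thymine nucleotide, and both purine and thymidylate synthesis draw on one-carbon units carried by folate. Dividing cancer cells use these routes to supply DNA and RNA synthesis.

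Values are normalized counts, 1 value per gene and library, and they are not divided by gene length. Library totals lay between 17083277 and 18007664. ZDHHC20 was at 2001, 2033 and 1940.4 in the shControl libraries and 872, 779 and 893 in the shZDHHC20 libraries (replicates 1, 2 and 3, here and below), which left 42.6% of the control mean (log2 fold change -1.23, SE 0.0649, adjusted p = 4.36e-07 by limma). The keratins KRT8, KRT18 and KRT19 and the cadherin CDH1 were present in every library. The summed epithelial markers, mostly KRT8 and KRT18, lay between 80830 and 82870 in shControl and between 75410 and 76780 in shZDHHC20, and of the 5 only CDH1 passed the test, at 273, 291 and 297 in the shControl libraries and 608, 588 and 690.0 in the shZDHHC20 libraries (log2 fold change 1.13, SE 0.0871, adjusted p = 6.62e-06 by limma). Of 5 leukocyte markers, 2 were in the table, with sums of 0 to 3.01 and 3.76 to 7.42, and of 5 acinar markers, 2 were in the table, with sums of 6.01 to 6.06 and 15.4 to 26.5. Of 5 endothelial markers, 4 were in the table (40.1 to 59.6 against 32.9 to 47.7), and of 5 fibroblast markers, 4, nearly all of it COL1A1 (3967 to 4041 against 3194 to 3476). No marker in the table was at 0 in all 6 libraries. The part of these markers in the results was not tested. The library shZDHHC20 replicate 2 stood apart. Over 4136 genes whose mean was 1000 or more, the SD of its log2 difference was 0.178 to replicate 1 and 0.198 to replicate 3, against 0.0722 between those and 0.0674 to 0.0718 among controls. It was the shZDHHC20 library farthest from the other two in 32 of 44 members.

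Of the 44 members, 16 differed between the groups at an adjusted p under 0.05 (limma, adjusted over all 22189 genes), of which 13 were lower and 3 higher in shZDHHC20 cells. That is 36.4% of the members, against 11.5% of all genes tested, with 6.84% of all genes lower and 4.61% higher. Among the 10908 genes whose mean was 100 or more, a level that 42 members reached, 21.7% were called, 13.3% lower and 8.41% higher. The median log2 fold change over the members was -0.13, against 0.013 over all genes tested and -0.012 over those with a mean of 100 or more. Of 44 members 38 were negative, against 10722 of 22189 genes tested. Among the 38, PPAT and CTPS2 turned positive under quantile normalization. The libraries of the groups did not overlap in 20 of 44 members, against 6347 of 22189 genes tested (28.6%). That share was not taken at a mean of 100 or more. Of the members, 2 (HPRT1 and ADA) were inside the limits the study used, an unadjusted p under 0.01 and a fold of at least 1.5, against 2.45% of all genes. In RNA of whole cultures, fewer cells of a kind and less RNA per cell cannot be told apart.

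The count of 16 depended on how the spread was estimated. Without a trend of variance on mean in the fit, 2 members (HPRT1 and ADA) passed, against 1.58% of all genes. With 1 library left out, 6 to 24 members passed. The 24 came without shZDHHC20 replicate 2, where 20% of all genes were called, and held IMPDH1, IMPDH2, APRT, UCK2, TK1, RRM2B, SAMHD1 and MTHFD2 besides the 16. Leaving out the other 5 libraries gave 8, 6 and 7 (shControl replicates 1, 2 and 3), 6 and 12 (shZDHHC20 replicates 1 and 3). In the same order, 5.54%, 5.77%, 5.55%, 6.24% and 7.96% of all genes were called in these fits. HPRT1, ADA, TYMS, PRPS1, AMPD2 and CMPK1 passed whichever single library was removed. The other 10 were lost with at least 1 library left out. The library left out is named at each.

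**Figure D1:**
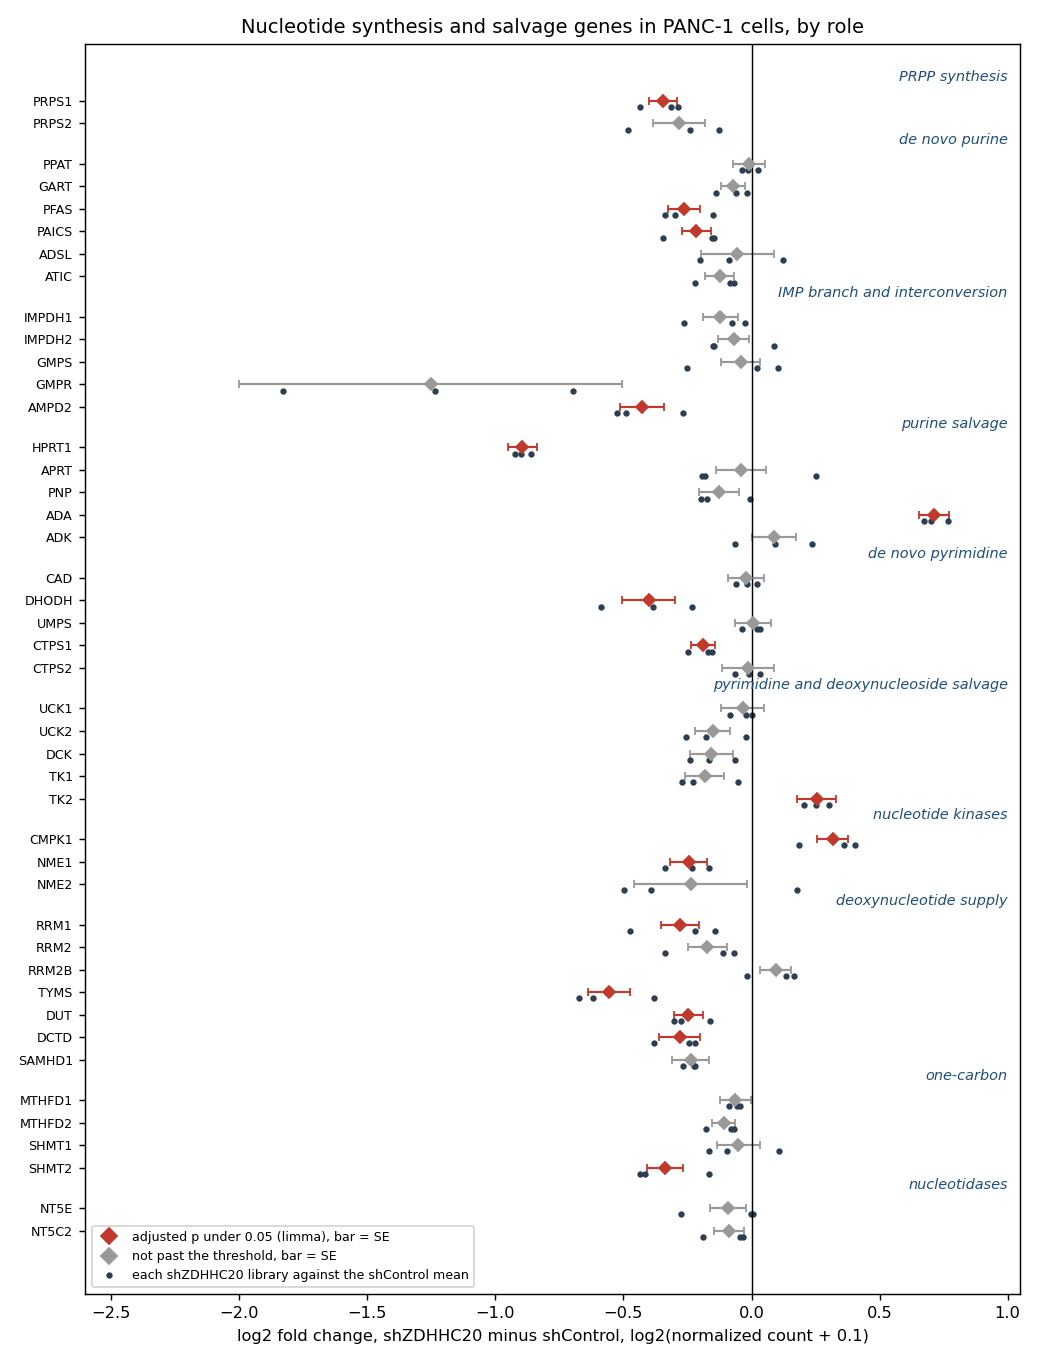
Log2 fold change of each of the 44 members (horizontal axis, shZDHHC20 minus shControl, on the log2 scale of the normalized count plus 0.1), grouped by role on the vertical axis. Diamonds with bars are fold changes with their SE, red where the adjusted p was under 0.05 by limma, and dots are the 3 shZDHHC20 libraries against the shControl mean. HPRT1 at -0.90 and ADA at 0.71 lie farthest from 0 among the red symbols, and GMPR, with few counts, has the widest bar.

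By p, the members first in rank were in purine salvage. HPRT1, which makes IMP and GMP from hypoxanthine and guanine, fell to 53.8% of the control mean. ADA, which deaminates adenosine and deoxyadenosine, rose 1.64-fold. The other 3 salvage genes did not pass the test. Thus 2 of 5 passed, all 5 with a mean of 100 or more, where 21.7% of all genes were called.

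HPRT1 was at 1715, 1699 and 1786 in the shControl libraries and 954, 914 and 928 in the shZDHHC20 libraries. The means ± SD (n = 3 libraries, here and below) were 1733 ± 46.3 in shControl and 932 ± 20.4 in shZDHHC20 (log2 fold change -0.90, SE 0.0569, adjusted p = 1.19e-06 by limma). Its highest shZDHHC20 library lay far below its lowest control, and the 3 shZDHHC20 libraries lay close together, shZDHHC20 replicate 2 included. HPRT1 ranked 12th of 22189 genes by p, and ZDHHC20 itself 3rd.

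ADA was at 1121, 1076 and 1183 in the shControl libraries and 1828, 1916 and 1794 in the shZDHHC20 libraries. The means were 1127 ± 54.1 in shControl and 1846 ± 62.9 in shZDHHC20 (log2 fold change 0.71, SE 0.0596, adjusted p = 1.02e-05 by limma). The groups did not overlap, and the direction was opposite to that of HPRT1. APRT, which salvages adenine, was at 1432, 1336 and 1447 in the shControl libraries and 1227, 1673 and 1238 in the shZDHHC20 libraries. Its groups overlapped, with shZDHHC20 replicate 2 the highest of all libraries and the other 2 shZDHHC20 libraries the lowest (log2 fold change -0.041, 95% interval -0.25 to 0.17, adjusted p = 0.856 by limma). Without that replicate, APRT passed the test (log2 fold change -0.19, adjusted p = 0.015 by limma). PNP, which splits inosine and guanosine into base and sugar phosphate, had a log2 fold change of -0.13 (95% interval -0.29 to 0.043), and ADK, which phosphorylates adenosine, one of 0.088 (95% interval -0.098 to 0.27).

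The start regions of HPRT1 and ADA are shown because they had the smallest p of the members and opposite directions. Each window is 300 bases of RefSeq sequence (GRCh38.p14) from 250 bases before the gene's start to 50 after it, written on the gene's strand, with matches to the GC box GGGCGG in capitals. HPRT1 (chrX:134459915-134460214, plus strand) had 4 matches, and ADA (chr20:44651650-44651949, minus strand) had 5, some of which overlap by a base.
HPRT1: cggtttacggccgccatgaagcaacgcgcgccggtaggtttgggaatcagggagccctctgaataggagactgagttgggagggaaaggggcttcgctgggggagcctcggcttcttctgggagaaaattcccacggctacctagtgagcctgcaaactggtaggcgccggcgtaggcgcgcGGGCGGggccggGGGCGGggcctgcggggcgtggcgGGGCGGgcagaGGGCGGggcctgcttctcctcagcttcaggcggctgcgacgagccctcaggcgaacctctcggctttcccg
ADA: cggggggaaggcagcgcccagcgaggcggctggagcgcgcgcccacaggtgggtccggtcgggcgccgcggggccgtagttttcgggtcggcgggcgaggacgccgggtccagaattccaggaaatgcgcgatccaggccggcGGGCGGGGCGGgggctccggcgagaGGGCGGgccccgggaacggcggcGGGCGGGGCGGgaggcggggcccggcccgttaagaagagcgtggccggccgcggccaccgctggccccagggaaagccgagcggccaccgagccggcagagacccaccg
Both windows thus carried the same motif in several copies, and it is a common one. Searched on both strands, GGGCGG was in 70.0% of 60 windows of 40 members and in 45.0% of 35116 windows of all genes. The median GC content was 66.8% in the member windows and 58.7% in all. A match is a description of the letters, not a site of binding.

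The de novo purine genes code for the enzymes that build IMP from PRPP, and all 6 were measured. PFAS and PAICS fell, by 0.26 and 0.21 on the log2 scale, and PPAT, GART, ADSL and ATIC did not pass the test. Thus 2 of 6 de novo genes passed, both with smaller differences than HPRT1, against 21.7% of all genes with a mean of 100 or more, which all 6 had.

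PPAT, the enzyme of the first committed step, was at 907, 859.7 and 900.1 in the shControl libraries and 905, 866 and 881 in the shZDHHC20 libraries. Its groups overlapped, and the means were 889 ± 25.7 in shControl and 884 ± 19.9 in shZDHHC20. The log2 fold change of PPAT was -0.0083 (95% interval -0.14 to 0.13, adjusted p = 0.961 by limma), with the sign turned under quantile normalization. GART, which carries 3 of the later steps in 1 protein, was at 4661, 4713 and 4819.9 in the shControl libraries and 4673, 4298 and 4536 in the shZDHHC20 libraries (log2 fold change -0.072, 95% interval -0.18 to 0.031, adjusted p = 0.403 by limma). Its lowest library was shZDHHC20 replicate 2, and the groups overlapped.

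PFAS, which adds an amide nitrogen to the growing ring precursor, was at 1864, 1793 and 1762 in the shControl libraries and 1467, 1627 and 1428 in the shZDHHC20 libraries. The means were 1806 ± 52.4 in shControl and 1507 ± 105 in shZDHHC20 (log2 fold change -0.26, SE 0.0619, adjusted p = 0.0145 by limma). The groups did not overlap. With any 1 library other than shZDHHC20 replicate 2 left out, PFAS no longer passed (adjusted p 0.0559 to 0.0946 by limma). PAICS, which catalyses a carboxylation and the following ligation, was at 4217, 4368 and 4256 in the shControl libraries and 3848, 3372 and 3865 in the shZDHHC20 libraries. The means were 4280.3 ± 78.4 in shControl and 3695 ± 279 in shZDHHC20 (log2 fold change -0.21, SE 0.0572, adjusted p = 0.0274 by limma). Here shZDHHC20 replicate 2 was the lowest library, and the groups did not overlap. The PAICS call was lost without any 1 shControl library or without shZDHHC20 replicate 1 (adjusted p 0.0574 to 0.137 by limma).

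ADSL, which works in both IMP and AMP synthesis, was at 106, 114 and 115 in the shControl libraries and 122, 105 and 97.2 in the shZDHHC20 libraries, with overlapping groups (log2 fold change -0.055, 95% interval -0.36 to 0.25, adjusted p = 0.865 by limma). ADSL shares 1344 exon bases with the annotated gene AL022238.4 on the same strand, so its low value is uncertain. ATIC, which closes the ring, was at 2976, 2923 and 3128 in the shControl libraries and 2839.6, 2584 and 2865 in the shZDHHC20 libraries. Its groups did not overlap, and it did not pass the test (log2 fold change -0.12, 95% interval -0.24 to -0.0040, adjusted p = 0.194 by limma).

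The ratio of de novo purine expression to HPRT1, 1 of 5 salvage genes, was taken in each library. The other salvage genes had log2 fold changes of -0.041 (APRT), -0.13 (PNP), 0.088 (ADK) and 0.71 (ADA). Ratios to them were not taken. The mean log2 value of the 6 de novo genes minus that of HPRT1 was -0.21, -0.20 and -0.24 in the shControl libraries and 0.58, 0.54 and 0.54 in the shZDHHC20 libraries. All 3 shZDHHC20 libraries lay above all 3 controls. Values were not divided by gene length, so where 0 falls on this scale also reflects gene lengths. The difference of the means was 0.77 on the log2 scale. It ranged from 0.76 to 0.78 over the alternatives run for it. HPRT1 was lower by more than any of the 6, and each single ratio to HPRT1 was higher in shZDHHC20 without overlap. The differences ran from 0.63 for PFAS to 0.89 for PPAT on the log2 scale. An exact permutation test, two-sided, gave p = 0.1 for each of the 6 ratios (0.1 adjusted over them), the smallest p that 3 libraries against 3 allow. All 6 ratios share HPRT1 and are not independent.

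**Figure D2:**
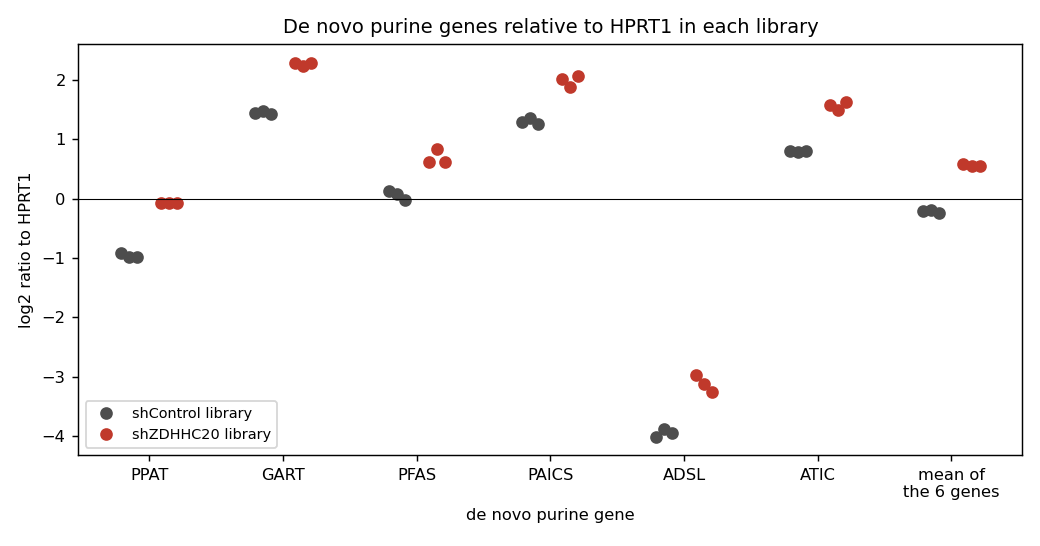
Log2 ratio of each de novo purine gene to HPRT1 (vertical axis) in each library, with the mean over the 6 genes at the right. Grey points are shControl and red points shZDHHC20 libraries, and in each gene the red points lie above the grey ones. The differences between genes on this axis also reflect gene length.

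PPAT and PAICS start back to back on chromosome 4, with 125 bases between their annotated ends in GENCODE 29 (GRCh38). The log2 ratio of PPAT to PAICS was -2.22, -2.35 and -2.24 in the shControl libraries and -2.09, -1.96 and -2.13 in the shZDHHC20 libraries. The groups did not overlap, and the ratio was higher in shZDHHC20 by 0.21. This pair was picked after the values were seen, so no test is given. The start window of PPAT (chr4:56435566-56435865, minus strand, GRCh38.p14, RefSeq) is shown because it spans the gap between both genes, and 236 of its bases are also in a window of PAICS. Capitals mark the E-box CACGTG, the sequence that MYC and its partner MAX are known to bind.
PPAT: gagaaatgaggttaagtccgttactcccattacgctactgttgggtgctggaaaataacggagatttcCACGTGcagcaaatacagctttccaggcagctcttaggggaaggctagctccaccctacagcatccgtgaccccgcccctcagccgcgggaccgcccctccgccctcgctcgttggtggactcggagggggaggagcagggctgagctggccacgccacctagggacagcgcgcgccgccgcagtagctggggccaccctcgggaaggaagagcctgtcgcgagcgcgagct
The E-box, which reads the same on both strands, was in 8 of 40 member genes (AMPD2, ATIC, DCK, DHODH, MTHFD1, NME1, PAICS and PPAT), in 13.3% of member windows and in 7.26% of all windows. Of these 8 genes, 4 fell and 4 did not pass the test. Of all 44 members 13 fell, and of all genes with a mean of 100 or more 13.3% were lower. The E-box marked in PPAT lies in the bases shared with PAICS, so the same site counts for both genes. MYC itself was at 1797, 1845 and 1969 in the shControl libraries and 1269.8, 1231 and 1218 in the shZDHHC20 libraries (log2 fold change -0.59, SE 0.0576, adjusted p = 2.79e-05 by limma). The part of MYC in the members' values was not tested.

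**Figure D3:**
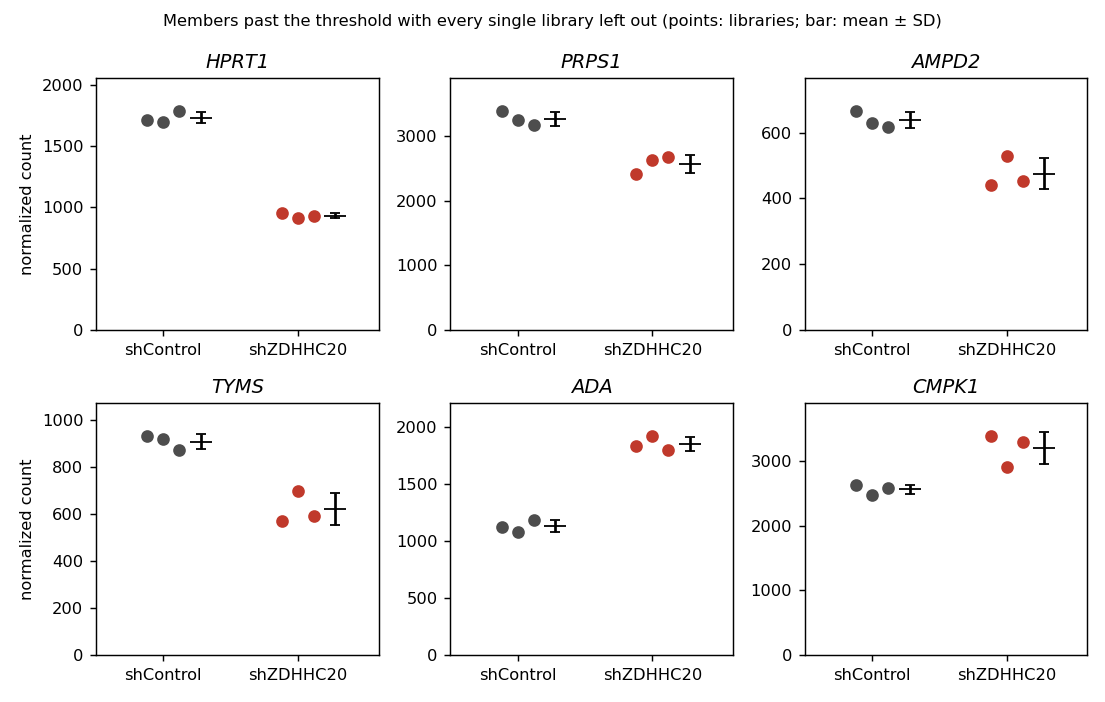
Normalized counts (vertical axis, from 0) of the 6 members that passed the threshold with each single library left out, by group on the horizontal axis. Points are libraries and bars the mean ± SD of 3 libraries. HPRT1, PRPS1, AMPD2 and TYMS were lower and ADA and CMPK1 higher in shZDHHC20, with no overlap.

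The PRPP synthetases supply the sugar phosphate that both the de novo and the salvage route use. PRPS1 was at 3382, 3241 and 3173 in the shControl libraries and 2416, 2622 and 2677 in the shZDHHC20 libraries. The means were 3265 ± 107 in shControl and 2572 ± 138 in shZDHHC20 (log2 fold change -0.35, SE 0.0547, adjusted p = 0.00117 by limma), and the groups did not overlap. PRPS2 was at 571, 509 and 483 in the shControl libraries and 439.9, 372 and 475 in the shZDHHC20 libraries, also without overlap, and did not pass the test (log2 fold change -0.28, 95% interval -0.50 to -0.066, adjusted p = 0.0946 by limma).

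Of the 5 genes that act on IMP, AMP and GMP, AMPD2 alone passed the test. At a mean of 100 or more that was 1 of 4, against 21.7% of all genes. AMPD2, which deaminates AMP to IMP, was at 665, 629 and 618 in the shControl libraries and 442, 529.7 and 453 in the shZDHHC20 libraries. The means were 637 ± 24.7 in shControl and 475 ± 47.7 in shZDHHC20 (log2 fold change -0.43, SE 0.0843, adjusted p = 0.00513 by limma). The highest shZDHHC20 library, replicate 2, was still below every control. AMPD2 shares 132 exon bases with GNAI3 on the same strand. IMPDH1 and IMPDH2, which lead from IMP towards GMP, had log2 fold changes of -0.12 (95% interval -0.27 to 0.023) and -0.070 (95% interval -0.20 to 0.064). Without shZDHHC20 replicate 2 both passed (log2 fold changes -0.17 and -0.15, adjusted p = 0.0433 and 0.00392 by limma). GMPS, which makes GMP, had -0.042 (95% interval -0.21 to 0.12). GMPR, which turns GMP back to IMP, was nearly absent, at 3.03 to 12.02 in the shControl libraries and 1.88 to 4.24 in the shZDHHC20 libraries, too low for its difference to be resolved (95% interval -2.86 to 0.36).

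In de novo pyrimidine synthesis 2 of 5 genes fell, all 5 with a mean of 100 or more, where 13.3% of all genes were lower. CAD, the protein of the first 3 steps, had a log2 fold change of -0.021 (95% interval -0.17 to 0.13), and UMPS, which makes UMP, one of 0.0060 (95% interval -0.15 to 0.16). DHODH, the mitochondrial enzyme between them, was at 328, 321 and 343 in the shControl libraries and 253, 282 and 220.4 in the shZDHHC20 libraries. The means were 331 ± 11.3 in shControl and 252 ± 30.7 in shZDHHC20 (log2 fold change -0.40, SE 0.105, adjusted p = 0.0247 by limma), and the groups did not overlap. With any 1 library other than shZDHHC20 replicate 2 left out, DHODH was no longer past the threshold (adjusted p 0.0785 to 0.118 by limma). CTPS1, which makes CTP from UTP, was at 4153, 4199 and 4215 in the shControl libraries and 3726, 3529 and 3759.9 in the shZDHHC20 libraries. The means were 4189 ± 32.3 in shControl and 3672 ± 124 in shZDHHC20 (log2 fold change -0.19, SE 0.0470, adjusted p = 0.0184 by limma). Its call was lost without any 1 shControl library or shZDHHC20 replicate 1 (adjusted p 0.0624 to 0.102 by limma). Its relative CTPS2 had a log2 fold change of -0.014 (95% interval -0.23 to 0.20), which turned positive under quantile normalization.

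Of the 7 deoxynucleotide supply genes 4 fell, all 7 with a mean of 100 or more, where 13.3% of all genes were lower. Without shControl replicate 2, TYMS alone of the 7 passed. TYMS, thymidylate synthase, was at 929.6, 919 and 871 in the shControl libraries and 568, 696 and 591 in the shZDHHC20 libraries. The means were 907 ± 31.2 in shControl and 618 ± 68.2 in shZDHHC20 (log2 fold change -0.56, SE 0.0815, adjusted p = 6.58e-04 by limma). No shZDHHC20 library reached the lowest control, and shZDHHC20 replicate 2 was nearest to it. TYMS shares 967 exon bases with ENOSF1 on the opposite strand, and whether reads were counted by strand is not stated. ENOSF1 had means of 935 ± 52.6 in shControl and 1041 ± 104 in shZDHHC20, with overlapping groups (log2 fold change 0.15, adjusted p = 0.264 by limma).

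The start window of TYMS (chr18:657403-657702, plus strand, GRCh38.p14, RefSeq, written on the gene's strand) is shown because it holds TTTCCCGC, a motif of the kind that E2F factors are known to bind and here a match on the other strand, in capitals.
TYMS: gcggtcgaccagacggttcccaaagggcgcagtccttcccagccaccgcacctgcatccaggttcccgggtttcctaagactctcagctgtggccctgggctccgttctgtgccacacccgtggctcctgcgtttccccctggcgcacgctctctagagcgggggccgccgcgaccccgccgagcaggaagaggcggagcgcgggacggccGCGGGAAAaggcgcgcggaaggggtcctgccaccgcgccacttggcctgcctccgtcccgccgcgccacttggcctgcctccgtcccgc
Searched on both strands, the motif was in 5.0% of member windows and 1.63% of all windows. The 3 member genes with it were TYMS, DUT and PRPS2, of which TYMS and DUT fell. Another motif of that kind, TTTGGCGC, was in 5.0% of member windows and 0.652% of all windows, in DCK, DUT and GART, of which DUT fell. Of all 44 members 13 fell.

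DUT, which removes dUTP and so yields dUMP for TYMS, was at 1896, 1988 and 1958 in the shControl libraries and 1578, 1739 and 1608 in the shZDHHC20 libraries. The means were 1947 ± 47.0 in shControl and 1642 ± 85.7 in shZDHHC20 (log2 fold change -0.25, SE 0.0570, adjusted p = 0.0130 by limma). The groups did not overlap, but without shControl replicate 2, shControl replicate 3 or shZDHHC20 replicate 1 the call was lost (adjusted p 0.0751 to 0.0812 by limma). DCTD, which makes dUMP from dCMP, was at 657, 631 and 737 in the shControl libraries and 517, 569 and 578 in the shZDHHC20 libraries. The means were 675 ± 55.3 in shControl and 555 ± 32.9 in shZDHHC20 (log2 fold change -0.28, SE 0.0812, adjusted p = 0.0407 by limma). Its call was lost with any 1 library other than shZDHHC20 replicate 2 left out (adjusted p 0.0638 to 0.210 by limma) and under quantile normalization (adjusted p = 0.0666 by limma).

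RRM1, the large subunit of ribonucleotide reductase, was at 3112, 2872 and 2929 in the shControl libraries and 2547, 2139 and 2689 in the shZDHHC20 libraries. The means were 2971 ± 125 in shControl and 2458 ± 285 in shZDHHC20 (log2 fold change -0.28, SE 0.0746, adjusted p = 0.0280 by limma). Its lowest library was shZDHHC20 replicate 2, and the call was lost without any 1 shControl library or shZDHHC20 replicate 1 (adjusted p 0.0752 to 0.146 by limma). Without shZDHHC20 replicate 2 the log2 fold change was -0.18 for RRM1 and -0.089 for RRM2. RRM2, the small subunit used in S phase, had a log2 fold change of -0.17 (95% interval -0.34 to -0.0081, adjusted p = 0.186 by limma). RRM2 shares 1077 exon bases with the annotated gene AC007240.1 on the same strand, so its value is less certain. RRM2B, the small subunit known as a p53 target, had 0.095 (95% interval -0.037 to 0.23, adjusted p = 0.389 by limma). SAMHD1, which breaks down deoxynucleotides, was at 542, 585 and 571 in the shControl libraries and 484, 469.6 and 485 in the shZDHHC20 libraries, without overlap. It lay just outside the threshold (log2 fold change -0.24, adjusted p = 0.0530 by limma), and TK2 just inside (adjusted p = 0.0480).

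Among the 5 salvage kinases, TK2, the mitochondrial thymidine kinase, alone passed and rose. All 5 had a mean of 100 or more, where 8.41% of all genes were higher. TK2 was at 423, 401 and 419.5 in the shControl libraries and 494, 511 and 478 in the shZDHHC20 libraries. The means were 415 ± 12.1 in shControl and 494 ± 16.3 in shZDHHC20 (log2 fold change 0.25, SE 0.0763, adjusted p = 0.0480 by limma), without overlap. With any 1 library other than shZDHHC20 replicate 2 left out TK2 did not pass (adjusted p 0.0751 to 0.174 by limma), nor without the filter on low values (adjusted p = 0.0508 by limma). TK2 also shares exon bases with neighbouring genes, 1056 of them with a noncoding RNA on the opposite strand. TK1, the cytosolic enzyme, had a log2 fold change of -0.18 (95% interval -0.34 to -0.021, adjusted p = 0.150 by limma). The uridine and cytidine kinases UCK1 and UCK2 and the deoxycytidine kinase DCK had log2 fold changes of -0.034, -0.15 and -0.16, with 95% intervals of -0.22 to 0.15, -0.30 to -0.0074 and -0.34 to 0.026. Without shZDHHC20 replicate 2, TK1 and UCK2 passed (log2 fold changes -0.25 and -0.22, adjusted p = 0.00865 and 0.00504 by limma).

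CMPK1, which phosphorylates UMP and CMP, rose. It was at 2621, 2481 and 2579 in the shControl libraries and 3383, 2914 and 3287 in the shZDHHC20 libraries. The means were 2560.4 ± 72.1 in shControl and 3195 ± 248 in shZDHHC20 (log2 fold change 0.32, SE 0.0604, adjusted p = 0.00413 by limma), and all 3 shZDHHC20 libraries were above the controls. NME1, a nucleoside diphosphate kinase, was at 690.1, 721 and 725 in the shControl libraries and 564, 607 and 634 in the shZDHHC20 libraries. The means were 712 ± 19.1 in shControl and 602 ± 35.4 in shZDHHC20 (log2 fold change -0.24, SE 0.0719, adjusted p = 0.0435 by limma). The NME1 call was lost without any 1 shControl library, without shZDHHC20 replicate 1 (adjusted p 0.107 to 0.184 by limma) and under quantile normalization (adjusted p = 0.0617 by limma). NME2 was listed at means of 64.4 ± 8.78 in shControl and 55.4 ± 14.7 in shZDHHC20 (log2 fold change -0.24, 95% interval -0.71 to 0.24). NME1 and NME2 share 638 and 603 exon bases with the readthrough gene NME1-NME2, so the values of both are uncertain.

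In one-carbon metabolism SHMT2 alone of 4 genes passed, and it fell. All 4 had a mean of 100 or more, where 13.3% of all genes were lower. SHMT2, which moves a one-carbon unit from serine to folate in mitochondria, was at 2354, 2475 and 2373 in the shControl libraries and 1799.8, 2142 and 1774 in the shZDHHC20 libraries. The means were 2401 ± 64.8 in shControl and 1905 ± 206 in shZDHHC20 (log2 fold change -0.34, SE 0.0698, adjusted p = 0.00678 by limma). The groups did not overlap, and the call was lost without shControl replicate 2 or shZDHHC20 replicate 1 (adjusted p 0.0565 to 0.0568 by limma). The cytosolic SHMT1 had a log2 fold change of -0.051 (95% interval -0.24 to 0.13). The folate enzymes MTHFD1 and MTHFD2 had -0.063 (95% interval -0.20 to 0.070) and -0.11 (95% interval -0.20 to -0.013). The nucleotidases NT5E and NT5C2, which remove phosphate from nucleoside monophosphates, had -0.091 (95% interval -0.24 to 0.062) and -0.088 (95% interval -0.22 to 0.040).

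Ratios within 9 pairs of related members were compared by library, since a ratio within a library hardly depends on the size factor of that library. In 4 of 9 pairs the groups did not overlap, as they did not in 28.6% of all genes taken singly. The share over other pairs of genes was not taken. The log2 ratio of the thymidine kinases TK1 to TK2 was 1.595, 1.48 and 1.57 in shControl and 1.07, 1.195 and 1.07 in shZDHHC20, a difference of -0.44. That of SHMT1 to SHMT2 was -2.27, -2.26 and -2.21 in shControl and -2.00, -1.98 and -1.91 in shZDHHC20, a difference of 0.29. RRM2 to RRM2B differed by -0.27 and CTPS1 to CTPS2 by -0.18 on the log2 scale, the latter by -0.10 without shControl replicate 2. Relative to the cytosolic member, the mitochondrial one was thus higher in all 3 shZDHHC20 libraries for the thymidine kinases and lower for the serine hydroxymethyltransferases. For these 4 pairs the exact permutation p was 0.1, the smallest possible, and 0.225 when adjusted over the 9 pairs. The other 5 pairs overlapped, with differences between -0.062 for PRPS1 to PRPS2 and 0.12 for UCK1 to UCK2.

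**Figure D4:**
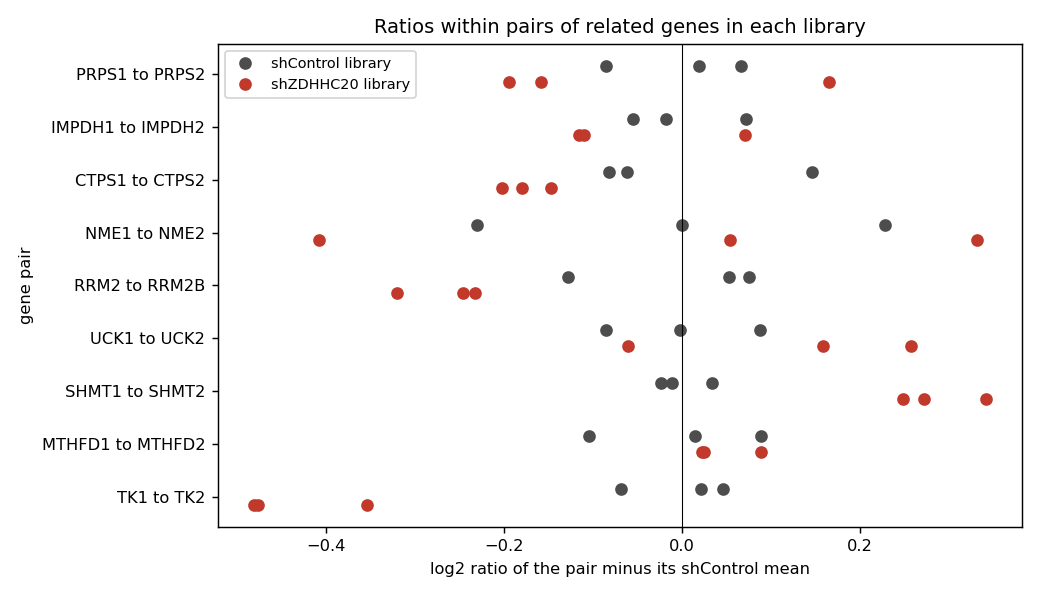
Log2 ratio within each of 9 gene pairs (vertical axis) in each library, minus the mean of the shControl libraries (horizontal axis). Grey points are shControl and red points shZDHHC20 libraries. The groups separate in the pairs CTPS1 to CTPS2, RRM2 to RRM2B, SHMT1 to SHMT2 and TK1 to TK2, with TK1 to TK2 farthest from 0 at -0.44.

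Levels between genes were compared per kilobase of exon (GENCODE 29). In shControl, HPRT1 had 1232 normalized counts per kilobase and ranked 5th of the 44 members, and in shZDHHC20 it had 662 and ranked 10th. ADA went the other way, from 732 per kilobase and 10th to 1199 and 4th. The highest member in both groups was IMPDH2, with 2196 and 2098 per kilobase, and the lowest was GMPR. The per-kilobase ranks of HPRT1 and ADA thus crossed. In the annotation, 10 members share exon bases with another gene on the same strand and 19 with one on the opposite strand, and such values are less certain.

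Of 67 other genes of nucleotide and folate metabolism that were tested, 16 passed (5 higher and 11 lower, 23.9% against 11.5% of all genes; at a mean of 100 or more, 16 of 54 or 29.6% against 21.7%), with 23 at an unadjusted p under 0.05 by limma. Without the variance trend 0 passed by limma, with 23 at an unadjusted p under 0.05. With 1 library left out 7 to 25 passed, the 7 without shControl replicate 3 and the 25 without shZDHHC20 replicate 2. The nucleoside transporter SLC29A2 rose, from 523, 534 and 479 to 732, 806 and 727 (log2 fold change 0.56, adjusted p = 3.91e-04 by limma). The related transporter SLC29A4 fell (log2 fold change -0.34, adjusted p = 0.00542 by limma). CDA, which deaminates cytidine, rose with low values (log2 fold change 0.67, adjusted p = 0.0202 by limma).

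In the folate and serine genes 6 fell and 2 rose of 20, against 6.84% and 4.61% of all genes. All 8 were among the 15 with a mean of 100 or more, where 13.3% of all genes were lower and 8.41% higher. The serine synthesis enzymes PHGDH and PSAT1 fell (log2 fold changes -0.25 and -0.30, adjusted p = 0.00495 and 6.39e-04 by limma), as did SHMT2, the next enzyme on from serine, above. The mitochondrial formate producer MTHFD1L fell (log2 fold change -0.38, adjusted p = 4.51e-04 by limma), and the mitochondrial ALDH1L2, which oxidises formyl folate, rose (log2 fold change 0.37, adjusted p = 0.0105 by limma). MTR, the methionine synthase, fell (log2 fold change -0.30, adjusted p = 0.0116 by limma). The kinases NME3 and AK4 fell, with log2 fold changes of -0.46 and -0.46 (adjusted p = 0.00415 and 0.0181 by limma).

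Several members are expressed mainly in S phase, so S phase genes were measured beside them. Of 23 such genes, 4 passed, all lower (17.4% against 11.5% of all genes; at a mean of 100 or more, 4 of 22 or 18.2% against 21.7%), with 7 at an unadjusted p under 0.05 by limma. Their median log2 fold change was -0.13, with 20 of 23 negative, and that of the members -0.13, with 38 of 44 negative. Over all genes tested the median was 0.013, with 10722 of 22189 negative, and at a mean of 100 or more it was -0.012. Without the variance trend 0 passed by limma, with 4 at an unadjusted p under 0.05. With 1 library left out 1 to 5 passed, the 1 without shControl replicate 3 or without shZDHHC20 replicate 1, and 2 passed without shControl replicate 2 or shZDHHC20 replicate 3. The replication helicase subunits MCM2, MCM3 and MCM7 fell (log2 fold changes -0.34, -0.24 and -0.24, adjusted p = 0.00446, 0.0111 and 0.0158 by limma). The replication clamp PCNA had a log2 fold change of 0.029 (95% interval -0.084 to 0.14), and the proliferation marker MKI67 one of -0.095 (95% interval -0.22 to 0.034). Both had overlapping groups. The part of S phase genes in the members' values was not tested.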

How the data were processed

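RNA-seq of PANC-1 cells was analysed from the table the authors deposited, which holds a normalized signal for each gene in each library. FPKM stands in its name, but within a tolerance of 0.05 of a step, 100% of the values in each library are whole multiples of its smallest value above 0 (0.939 to 1.06), as counts divided by 1 size factor per library are without scaling to length. Per the labels the build was hg19, and the aligner, counting tool and use of strand are not given in the sources used here. Table columns named NC and siZDHHC20 were matched to shControl and shZDHHC20 titles by group and replicate number. In steps, the libraries held 16575546 to 18441049, and these totals differ little.

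Symbols matched 27175 of 27394 identifiers. A pseudocount of 0.1 was added before log2, so fold changes of genes with values near 0 are uncertain and can differ either way from the ratio of the means. Genes with a mean of at least 1 were fitted with limma 3.58.1 in R 4.3.3 (group as the only term, eBayes with its variance trend on the mean). Tests were two-sided, with Benjamini-Hochberg adjustment over the 22189 genes. Ratios were compared by exact permutation over libraries. GENCODE 29 (GRCh38) gave exon lengths, positions and overlaps, and RefSeq the start windows. Scripts were tested on simulated data. Members, lists and named genes were chosen with earlier results of these data known. Every member may be named, HPRT1, the 6 de novo purine genes and members with an adjusted p under 0.05 in full. Of the other pathway genes the rule names the 12 with the smallest adjusted p, of which some are not reported here, and of the S phase genes MKI67, PCNA and 3 more. Alternatives were leaving out single libraries, a block for the replicate number, robust moderation, no trend, quantile normalization, median-ratio scaling, a minimum mean of 5, no filter and a pseudocount of 1.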

Additional observations from a re-analysis of the deposited data

How the results depend on the processing

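Tests on whole reads had been planned and were not run. In the shControl libraries the steps lie so close to 1 (1.001 to 1.01) that dividing by them could not be told from rounding by the rule used, so the values were tested as a continuous signal. HPRT1, ADA, ZDHHC20 and MYC kept their direction and passed under each of the 14 alternatives. Without the variance trend, 2 members, 0 other pathway genes and 0 S phase genes passed, and 351 of all genes in place of 2541. The 3 counts were 6 to 24, 7 to 25 and 1 to 5 with 1 library left out, and over all genes 1233 to 4454. With the replicate number as a block, 11 members, 11 other pathway genes and 3 S phase genes passed, and 2 members were inside the study's limits. Over all genes 1942, or 8.75%, passed with the block. The block lost the calls of PAICS, CTPS1, DCTD, NME1 and TK2 (adjusted p 0.0528 to 0.103 by limma). Same-numbered libraries deviated from their group means with correlations of -0.0948, -0.156 and -0.0771 over 10908 genes. Differently numbered ones did so with -0.0918 to 0.154. Each mean rests on 3 libraries, so these values cannot show whether the numbers pair the libraries. Under quantile normalization the log2 fold change turned to 0.00613 in PPAT and to 0.0086 in CTPS2. With 1 library left out, signs turned in 10 members that had not passed, with ranges of -0.0323 to 0.00663 (PPAT), -0.0851 to 0.0319 (CTPS2), -0.0698 to 0.0301 (UCK1), -0.0746 to 0.0579 (CAD), -0.0301 to 0.0293 (UMPS), -0.187 to 0.0359 (APRT), -0.13 to 0.00672 (SHMT1), -0.115 to 0.0641 (GMPS), -0.139 to 0.00117 (NT5E) and -0.145 to 0.0179 (ADSL). The cause of these changes was not tested. Over the alternatives run for them, the pair ratios of PRPS1 to PRPS2, NME1 to NME2 and MTHFD1 to MTHFD2 also crossed 0 (-0.176 to 0.00437, -0.177 to 0.193 and -0.00641 to 0.0902).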
